A study of Mus musculus with 4 samples.

Results

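The endoplasmic reticulum (ER) chaperone and unfolded protein response genes examined here are 37 named genes among the 50600 gene rows of each deposited table. They were chosen by name, and all 37 symbols matched a row directly. The data are RNA-seq fragment counts from 4 libraries of mouse primary cells of strain C57BL/6NJ labelled T-helper 17 (Th17), a CD4 T-cell type that makes interleukin 17. The labels number the libraries as biological replicates 1 to 4, put all of them in 1 group, and share 1 donor record among 4 biosample records. They give no control group, treatment time, age or sex. The labels link a protocol for differentiating CD4 T cells, while each table's header names an alignment with hour 0 in it. Nothing states that the samples came from separate animals or cultures, so p-values measure only the spread between these samples, which may be technical.

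Proteins that T cells secrete or place on their surface fold inside the ER. BiP, encoded by Hspa5, and other chaperones hold nascent chains there, disulfide isomerases form their cross-links, and ER-associated degradation (ERAD) returns failed proteins to the cytosol. When unfolded protein builds up, 3 kinds of membrane sensor respond. IRE1 splices the Xbp1 messenger, ATF6 is cut to release a transcription factor, and PERK phosphorylates the initiation factor eIF2 alpha, which slows translation and raises ATF4. The PERK branch is shared with other eIF2 alpha kinases, and the joint pathway is called the integrated stress response.

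In these cells the folding machinery was expressed throughout, and 35 of the 37 genes reached 1 TPM in every library. TPM is a level per length of transcript, scaled to 1000000 per library and computed here from the counts. Among nuclear protein-coding genes, 45.6% reached that level. The median over the 37 genes was 62.6 TPM, against 34.2 TPM over the 9926 nuclear protein-coding genes that reached 1 TPM in every library. The highest level was that of Calr, at 431 ± 31.7 TPM (SD, n = 4). Derl3 and Chac1 were the 2 genes that did not reach 1 TPM. The summed level of the 37 genes was 3877, 3822, 3899 and 3960 TPM in replicates 1 to 4, a coefficient of variation (CV, the SD as a percent of the mean) of 1.47%. Their share of all counted fragments lay between 0.403% and 0.420%.

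A feature that was not used to choose these genes is the sequence of their promoters. The ER stress response element (ERSE), which ATF6 binds together with the CCAAT factor NF-Y, has the letters CCAAT and CCACG with 9 free bases between them. It was searched on both strands from 250 bases before to 50 bases after each RefSeq start (build GRCm38.p6). Of the 31 genes with such a window, 9 held an ERSE. Over all 27025 genes with a window, 37 did, which is 0.137%. The gene list was compiled from genes known for this pathway, so this share is a description and carries no test. Hyou1, Manf, Sec61a1, Derl1, Atf6 and Ppp1r15b had no window in the table used here. The sites are shown because they are the sequence that members of very different level have in common. Each is printed 5′ to 3′ along the motif with 6 flanking bases on each side, and capitals mark the fixed letters of the motif.
Calr, chr8:84847069-84847099, plus strand: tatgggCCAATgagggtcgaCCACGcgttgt
Hsp90b1 near site, chr10:86705527-86705557, plus strand: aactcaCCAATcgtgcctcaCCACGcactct
Hsp90b1 far site, chr10:86705632-86705662, minus strand: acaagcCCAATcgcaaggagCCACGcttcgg
Hspa5, chr2:34772019-34772049, plus strand: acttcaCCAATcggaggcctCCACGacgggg
Canx, chr11:50325794-50325824, minus strand: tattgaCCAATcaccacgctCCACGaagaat
Pdia6, chr12:17266485-17266515, plus strand: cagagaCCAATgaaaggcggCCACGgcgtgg
Syvn1, chr19:6046526-6046556, plus strand: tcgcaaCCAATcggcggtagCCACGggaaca
Creld2, chr15:88819514-88819544, minus strand: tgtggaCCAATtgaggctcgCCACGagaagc
Ero1lb, chr13:12565676-12565706, minus strand: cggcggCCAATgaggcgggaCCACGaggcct
Derl3, chr10:75893236-75893266, minus strand: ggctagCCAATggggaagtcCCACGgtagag

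The motif lay between 25 bases (Syvn1) and 193 bases (the far site of Hsp90b1) before the RefSeq start. The gene starts in the deposited tables lie 120 bases further upstream for Hspa5, 65 for Hsp90b1 and 44 for Pdia6, so distances depend on the annotation. Genes with an ERSE ranged from 0.365 TPM (Derl3) to 431 TPM (Calr), with a median of 76.2 TPM over the 9. The 22 genes with a window and no ERSE had a median of 43.6 TPM and ranged from 0.0236 to 354 TPM. A promoter with the exact motif thus went with levels at both ends of the range.

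Other stress motifs were rarer among these promoters. ERSE-II, a shorter element (ATTGG and CCACG with 1 free base between them), was present in Herpud1, chr8:94386371-94386393 on the plus strand, and in 0.0444% of all genes with a window. It is shown with the same flanks, as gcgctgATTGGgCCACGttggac. The C/EBP-ATF response element (CARE, TGATGNAA), which ATF4 binds with C/EBP partners, was found in Herpud1, Trib3 and Chac1, and in 4.51% of all genes. The site in Chac1, chr2:119351043-119351062 on the minus strand, reads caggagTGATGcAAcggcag. A cyclic AMP response element (TGACGTCA) was present in Ppp1r15a, against 2.03% of all genes. Neither the unfolded protein response element (TGACGTGG) nor the heat shock element (GAA, TTC and GAA with 2 free bases in each gap) was found in the 31 windows, against 0.714% and 0.662% of all genes. The motifs share letters, since ERSE and ERSE-II both end in CCACG and the unfolded protein response and cyclic AMP elements both begin with TGACGT.

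Longer stretches are shown for the gene with 2 ERSEs, Hsp90b1, and for the nearly silent Derl3. They follow the gene's own strand, with the fixed ERSE letters in capitals, and an ERSE that points away from the gene appears as its reverse complement. They hold only bases before both the RefSeq start and the start in the deposited tables. Both runs are rich in G and C, at 64.3% for Hsp90b1 and 60.8% for Derl3.
Hsp90b1, chr10:86705510-86705694, minus strand: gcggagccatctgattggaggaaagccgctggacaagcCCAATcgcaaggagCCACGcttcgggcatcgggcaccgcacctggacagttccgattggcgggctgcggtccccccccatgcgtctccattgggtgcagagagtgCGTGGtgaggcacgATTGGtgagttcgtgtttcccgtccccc
Derl3, chr10:75893148-75893397, plus strand: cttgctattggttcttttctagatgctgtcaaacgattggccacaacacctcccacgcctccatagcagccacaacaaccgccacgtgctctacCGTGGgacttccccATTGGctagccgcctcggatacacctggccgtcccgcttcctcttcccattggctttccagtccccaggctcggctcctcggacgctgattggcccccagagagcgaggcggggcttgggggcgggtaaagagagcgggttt

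**Figure D1:**
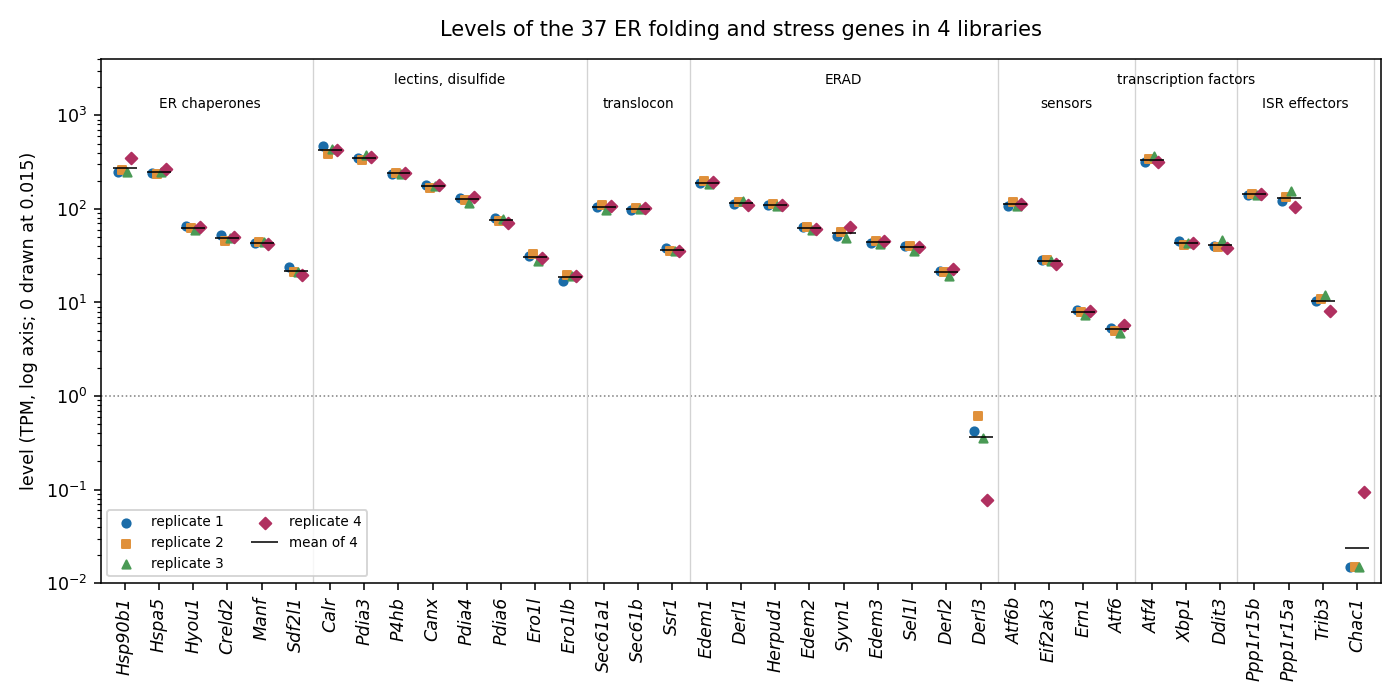
Level of each of the 37 genes in TPM on a log axis, grouped by role, with 1 point per library and a line at the mean of 4 libraries; a value of 0 is drawn at 0.015 and the dotted line marks 1 TPM. The points of most genes lie on top of each other, Calr is highest at 431 TPM, and Derl3 and Chac1 are the genes below the dotted line.

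Libraries held 29041979, 35018552, 48808978 and 45490373 counted fragments in replicates 1 to 4. Of 12464 genes that passed a count filter over all 4 libraries, 24 had a spread over libraries above the abundance trend (edgeR quasi-likelihood dispersion test, adjusted p below the threshold of 0.05), which is 0.193%. Genes of a heat shock list differed between libraries, with 10 of 16 called, 14 of 16 highest in replicate 4 and 12 of 16 lowest in replicate 1. The list is mostly cytosolic but includes Hspd1 and Hspe1, whose products are mitochondrial. The summed level of that list was 3357.5, 4404, 3946 and 7377 TPM in replicates 1 to 4.

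The resident chaperones of the ER lumen came first. Hspa5, the ER Hsp70 and the main regulator of the sensors (ENSMUSG00000026864, chromosome 2, 34771970 to 34777547, plus strand, mm10), was at 244, 238, 245 and 266 TPM in replicates 1 to 4. Hsp90b1, which encodes the ER Hsp90 called GRP94 (ENSMUSG00000020048, chromosome 10, 86690209 to 86705509, minus strand), stood at 251, 262, 246 and 346 TPM. The first 3 libraries were close together for both genes, and replicate 4 was highest for both, 1.37-fold above the mean of the others for Hsp90b1 and 1.10-fold for Hspa5. Neither was called excess variable by edgeR (adjusted p = 0.425 and 0.995). The large Hsp70-related exchange factor gene Hyou1 was at 66.3, 61.9, 59.5 and 63.5 TPM. Creld2 was at 49.4 ± 3.09, Manf, whose product binds BiP and can be secreted, at 43.3 ± 0.827, and Sdf2l1, a partner in BiP complexes, at 21.5 ± 1.87 TPM (n = 4 each). These last 3 genes had the lowest levels of the 6 ER chaperone genes with exon length. With coding length Manf, at 98.9 ± 2.09 TPM, lay above Hyou1, at 52.7 ± 2.33 TPM.

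With exon length the lectin chaperones and disulfide enzymes had the highest median of the role groups, at 152 TPM, with mean levels from 18.8 to 431 TPM. That rank depends on the length. With coding length the middle genes of this group were P4hb at 156 and Pdia6 at 74.3 TPM. The middle translocon gene was then Ssr1 at 123 TPM, and the translocon median was the higher. Calr, the soluble lectin chaperone calreticulin (ENSMUSG00000003814, chromosome 8, 84841850 to 84846934, minus strand), stood at 467, 390.4, 438 and 429 TPM. Canx, its membrane-bound relative calnexin, was at 181, 169, 178 and 181 TPM. Both were lowest in replicate 2, 1.20-fold and 1.07-fold under the highest library, and neither was called (edgeR adjusted p = 0.995 for both). Pdia3, the isomerase that works with both lectins, was at 349, 329.6, 377 and 362 TPM. The general isomerase gene P4hb was at 237, 241, 238 and 242 TPM. Its CV of 0.924% by TPM was the smallest of the 35 members that passed the count filter. It lay below the 1.16% that counting error alone would give. Pdia4 was at 127 ± 8.58 and Pdia6 at 76.2 ± 4.10 TPM. The oxidases that recharge the isomerases were lower, with Ero1l at 30.4 ± 2.13 and Ero1lb at 18.8 ± 1.13 TPM.

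At the translocon, the channel through which chains enter the ER, Sec61a1 (the pore subunit) was at 104, 109, 97.3 and 107 TPM. Sec61b, a small subunit of the same channel, was at 97.6, 102, 99.9 and 101 TPM. The libraries of the 2 genes overlapped. Ssr1, a subunit of the translocon-associated complex, was at 38.6 TPM in replicate 1 and at 35.3, 35.3 and 35.2 TPM in the others, so its library differences were small though replicate 1 stood alone.

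Among ERAD genes Edem1 led. Edem1, a lectin that marks misfolded glycoproteins for removal, was at 188, 197, 183 and 193 TPM, and its relatives Edem2 and Edem3 were at 62.6 ± 2.22 and 44.1 ± 1.79 TPM. The highest library of Edem2, at 64.6 TPM, lay far below the lowest of Edem1. The derlins, membrane proteins of the export channel, spread most widely. Derl1 was at 114, 117, 121 and 111 TPM and Derl2 at 21.7, 21.3, 19.1 and 22.9 TPM. Derl3 had 7, 12, 10 and 2 counts in replicates 1 to 4, or 0.422, 0.606, 0.353 and 0.0776 TPM. The exact 95% Poisson intervals of these values reach from 0.0094 to 1.06 TPM and cover counting error only. Derl3 did not pass the count filter and was not tested.

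The ubiquitin ligase gene Syvn1, also called Hrd1, was at 51.9, 56.5, 48.5 and 64.7 TPM. Replicate 4 was highest, 1.24-fold above the mean of the others, and the gene was not called (edgeR adjusted p = 0.845). Its partner Sel1l was at 40.4, 40.2, 35.4 and 39.0 TPM, with no such rise in replicate 4. The scaffold gene Herpud1, a known target of several stress branches, was at 109, 112, 108 and 111 TPM, a CV of 1.59%.

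Of the 4 sensor genes, 3 lay below the members' median of 62.6 TPM and Atf6b above it with exon length. With coding length Atf6b, at 50.5 ± 2.18 TPM, ranked 22 of 37, so all 4 lay below the median. The middle gene was then Xbp1 at 60.9 TPM. Ern1, which encodes IRE1 alpha, was at 8.30, 7.99, 7.32 and 8.16 TPM, and Eif2ak3, which encodes PERK, at 28.6, 28.8, 27.9 and 25.5 TPM. Atf6 was at 5.38, 4.98, 4.71 and 5.80 TPM. Its relative Atf6b, reported as a weaker activator, was at 108, 118, 108 and 114 TPM. Every library held less Atf6 than Ern1, less Ern1 than Eif2ak3 and less Eif2ak3 than Atf6b on this scale, which divides by exon length. With coding length the means of Atf6 and Ern1 changed places, at 8.52 ± 0.757 and 7.71 ± 0.407 TPM, with overlapping ranges.

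Downstream of the sensors, Xbp1 was at 45.7, 40.7, 43.0 and 43.2 TPM. Counts per gene do not separate its spliced from its unspliced messenger, so IRE1 activity was not measured. Atf4 (ENSMUSG00000042406, chromosome 15), the transcription factor of the integrated stress response, whose protein is mainly set by translation, was at 319, 338, 364 and 316 TPM. Ddit3, which encodes the stress factor CHOP, was at 40.6, 39.5, 46.4 and 38.4 TPM. Both were highest in replicate 3, by 1.12-fold and 1.17-fold over the mean of the others, and neither was called (edgeR adjusted p = 0.995 for both).

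The effectors of that response differed widely in level. Ppp1r15b, the constitutive targeting subunit of the eIF2 alpha phosphatase, was at 142, 143, 141 and 145 TPM, a CV of 1.13%. Ppp1r15a, the inducible subunit GADD34, was at 121, 136, 157 and 106 TPM, highest in replicate 3 and lowest in replicate 4 with a 1.49-fold range. It was not called (edgeR adjusted p = 0.455). Trib3, a pseudokinase gene induced by ATF4 and CHOP, was at 10.3, 10.8, 11.98 and 8.01 TPM, again highest in replicate 3 and lowest in replicate 4 (edgeR adjusted p = 0.995). Chac1, a glutathione-degrading enzyme gene induced by ATF4, had 0 counts in replicates 1 to 3 and 2 counts in replicate 4. A count of 0 allows up to 0.220, 0.184 and 0.129 TPM in those libraries at a limit of 3 counts each, which is not the interval used for Derl3. The value in replicate 4 was 0.0945 TPM, and its exact 95% Poisson interval reached up to 0.341 TPM. Chac1 was not tested.

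Ordered by mean level, the 37 genes formed a graded series. In 11 of the 36 steps between neighbours the ranges over the 4 libraries did not overlap. Calr lay above Pdia3, P4hb above Edem1, Edem1 above Canx and Canx above Ppp1r15b without overlap. The order depends on the length used, and with coding length Edem1 (211 to 226 TPM) lay above P4hb (155 to 157 TPM). Pdia3, Atf4, Hsp90b1, Hspa5 and P4hb, which follow each other, overlapped from each to the next. The top 5 genes held 42.3% of the summed level.

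The labels allow a comparison between the numbered replicates. Of the 37 genes 35 passed the count filter. By edgeR's test 0 of the 35 were called at an adjusted p below 0.05. The share over all genes was 0.193%, at which 0 of 35 says little about them. At an unadjusted edgeR p below 0.05 there were 3 of 35, Hsp90b1, Ppp1r15a and Syvn1, which is 8.57% against 5.34% of all genes. DESeq2 marked 0 of the 35 as dispersion outliers, against 0.866% of all genes, a share at which 0 of 35 says little about them. Without any filter on counts, Hsp90b1 and Ppp1r15a were called (edgeR adjusted p = 0.000433 and 0.000749), among 349 calls in all, which is 1.63% of the genes in that fit. The median CV of the 35 genes was 5.43%, against 7.94% over all genes tested and 7.09% over the nuclear protein-coding ones. These CVs were not matched for level, so nothing is read from the lower value. The median level of the 37 genes was 62.6 TPM, against 34.2 TPM for nuclear protein-coding genes that reached 1 TPM in every library. In 16 of the 35 the CV was below 5%, and in 4 it was above 10%, namely Hsp90b1, Syvn1, Ppp1r15a and Trib3.

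These 4 variable genes did not share a library pattern. Hsp90b1 and Syvn1 were highest in replicate 4, where Hsph1, a cytosolic heat shock gene, reached 195 TPM and the first 3 libraries had 26.0, 65.4 and 33.0 TPM (adjusted p = 0.000273 by edgeR). Ppp1r15a and Trib3 were lowest there. Without replicate 4 the adjusted edgeR p of Hsp90b1 was 0.997, and the part of the heat shock difference in its level was not tested. Of the 35 genes, 10, 10, 7 and 8 had their highest TPM in replicates 1 to 4, against 33.3%, 25.0%, 18.3% and 23.3% of all genes tested. Their lowest TPM fell in replicates 1 to 4 for 3, 6, 16 and 10 genes, against 18.7%, 14.5%, 31.0% and 35.7%. These counts depend on the scaling, and 16 of 35 were highest in replicate 4 with TMM or DESeq2 factors, against 29.4% and 30.3% of all genes.

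**Figure D2:**
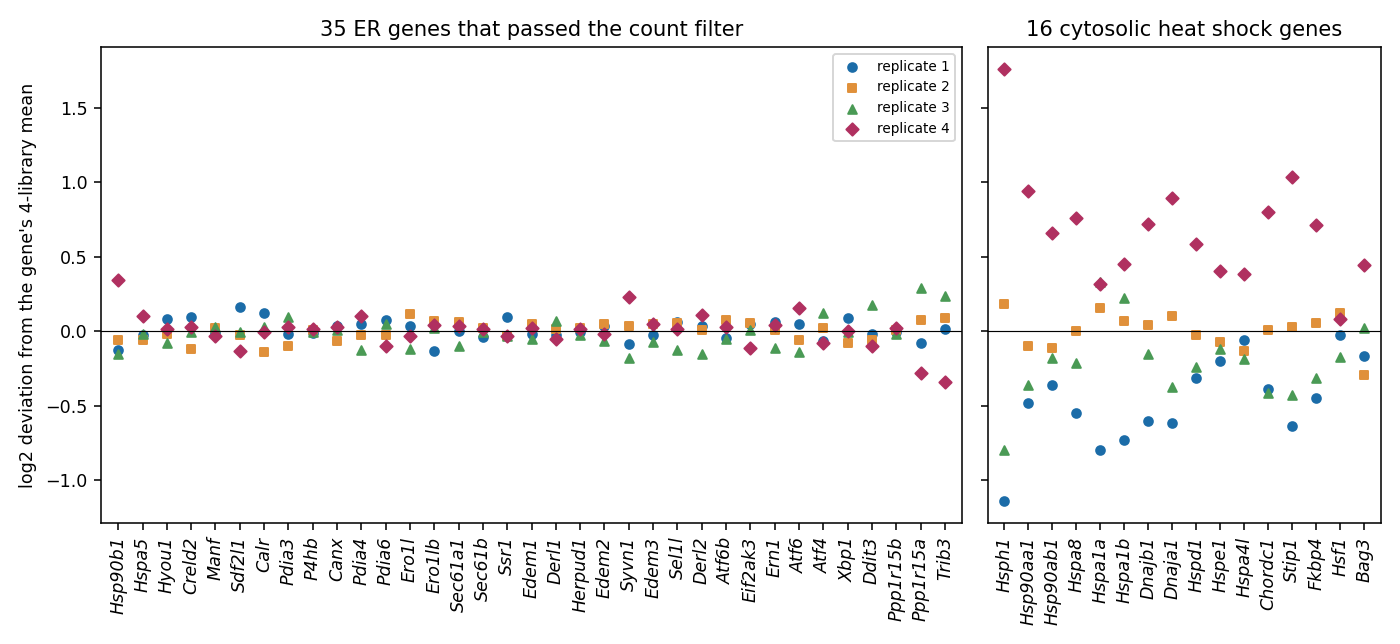
Deviation of each library from the gene's own 4-library mean, in log2 units of TPM + 0.1, on 1 shared axis with 1 symbol per library. Shown are the 35 ER genes that passed the count filter (left) and 16 heat shock genes (right), which include the mitochondrial Hspd1 and Hspe1. The ER genes stay within a narrow band apart from Hsp90b1, Syvn1, Ppp1r15a and Trib3, while the summed level of the heat shock genes rises to 7377 TPM in replicate 4.

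Role groups showed small shifts. Of the 8 ERAD genes tested, 7 were lowest in replicate 3, against 31.0% of all genes, and 5 of 8 were with TMM or DESeq2 factors, against 23.9% and 24.1%. The median deviation of these 8 genes in replicate 3 was -0.07 on the log2 scale, against -0.02 over all genes tested. All role groups and libraries were looked at in this way. On a list of further ERAD genes, 7 of the 18 tested were lowest in replicate 3 by TPM. With TMM or DESeq2 factors 2 of those 18 were. Atf4, Ddit3, Trib3 and Ppp1r15a were picked out after their values were seen because each was highest in replicate 3, on the TPM scale and with TMM or DESeq2 factors, so nothing is read from that count. Of the 16 tested genes of the further ATF4 and integrated stress response list, 4 were highest and 5 lowest in replicate 3. Ppp1r15b differed by 1.03-fold between its highest and lowest library, and Herpud1, the target of several stress branches named above, by 1.04-fold. The summed level of the 6 ER chaperone genes was 680.4, 673, 665 and 788 TPM, so replicate 4 lay above the others. Without Hsp90b1 the other 5 genes summed to 429.9, 410.4, 419 and 442 TPM, and the ratio of replicate 4 to the mean of the others went from 1.17 to 1.05.

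Partners and relatives were compared within each library in 13 pairs. With 4 libraries the exact two-sided sign-flip permutation test cannot pass 0.05 for any pair. In 11 pairs 4 of 4 libraries shared the direction, which gives the smallest p the test allows and here an adjusted p of 0.148. TPM ratios between genes also depend on the length used. The deposited exon lengths include long untranslated stretches, and ratios were recomputed with coding length.

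Among the pairs of relatives compared, the ATF6 genes had the widest ratio with exon length but not with coding length. Atf6b exceeded Atf6 by 19.6 to 23.7-fold, lowest in replicate 4 and highest in replicate 2, and by 5.43 to 6.54-fold with coding length. Derl1 exceeded Derl2 by 4.86 to 6.34-fold, and by 1.81 to 2.36-fold with coding length. Edem1 exceeded Edem2 by 2.93 to 3.13-fold, or 4.83 to 5.17-fold with coding length, and Edem3 by 4.24 to 4.37-fold, or 6.23 to 6.41-fold with coding length. The order within each of these families was the same in all 4 libraries under both lengths. Ero1l exceeded Ero1lb by 1.46 to 1.82-fold and Calr exceeded Canx by 2.31 to 2.58-fold. Eif2ak3 exceeded Ern1 by 3.13 to 3.81-fold, or 2.02 to 2.46-fold with coding length. Atf4 exceeded Ddit3 by 7.84 to 8.56-fold, or 3.80 to 4.15-fold with coding length.

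Other pairs had no fixed order. Hspa5 over Hsp90b1 was at 0.974, 0.908, 0.996 and 0.769, and at 1.25, 1.17, 1.28 and 0.988 with coding length, so the direction turns with the length. Ppp1r15a over Ppp1r15b was at 0.855, 0.948, 1.12 and 0.732 (exact permutation p = 0.375), and below 1 in every library with coding length. Sec61a1 over Sec61b lay between 0.974 and 1.07 (exact permutation p = 0.25), and between 1.52 and 1.67 with coding length. Syvn1 exceeded Sel1l by 1.29 to 1.66-fold, and the ratio spanned 0.926 to 1.20 with coding length.

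**Figure D3:**
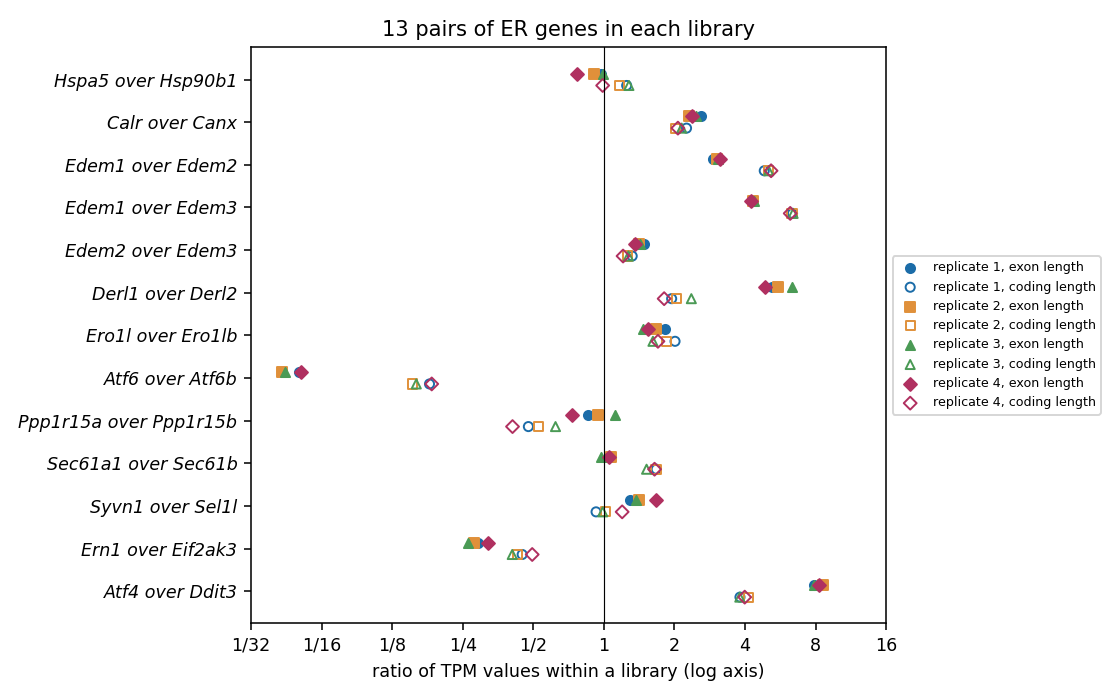
Ratio of TPM values within a library on a log axis for 13 pairs of ER genes, with filled symbols for the deposited exon length, open symbols for coding length and 1 symbol shape per library. The line marks a ratio of 1; the Atf6 over Atf6b pair lies farthest to the left, and its coding-length values lie nearer to 1.

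Other genes of the pathway were taken from lists and gave a similar picture. Of 20 further ER foldases 18 reached 1 TPM in every library, with a median of 56.0 TPM, led by the prolyl isomerase gene Ppib at 192 ± 4.14, the BiP cochaperone gene Dnajc3 at 148 ± 4.02 and Sdf2 at 118 ± 6.46 TPM. Sdf2, the constitutive relative of Sdf2l1, was above it in every library, as 116, 127, 117 and 112 TPM compare with 24.1, 21.1, 21.4 and 19.5 TPM. The 16 genes of the glycoprotein cycle and the oligosaccharyltransferase all reached 1 TPM, led by the glucosidase gene Ganab at 313 ± 13.1 TPM. Of 19 further ERAD genes 18 did, led by the lectin gene Os9 at 244 ± 14.6 TPM, and of 17 further translocon genes 16, led by Tram1 at 250.4 ± 10.1 TPM. None of the genes on these 4 lists was called excess variable by edgeR, against 0.193% of all genes. At an unadjusted edgeR p below 0.05 were 2 of the 18 foldases tested and 3 of the 18 ERAD genes tested. The other lists had 0, against 5.34% of all genes.

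Of the 2 lists closer to stress signalling, that of ATF4 and integrated stress response genes was more divided. Of 24 genes tied to ATF4 and the integrated stress response, 16 reached 1 TPM, with a median of 17.2 TPM. Ddit4, which restrains mTORC1, was highest at 735, 895, 609 and 651 TPM, followed by the glycyl-tRNA synthetase gene Gars at 108 ± 4.87 and the amino acid transporter subunit gene Slc3a2 at 90.7 ± 2.83 TPM. Known ATF4 targets on the list, named after their values were seen, lay at both ends. Asns, which makes asparagine, had 6, 5, 9 and 5 counts, or 0.141 to 0.263 TPM. The serine and folate pathway genes Phgdh, Mthfd2 and Psat1 were at 62.5 ± 6.22, 59.3 ± 3.25 and 26.9 ± 1.61 TPM, and the amino acid transporter gene Slc7a5 at 61.0 ± 8.29 TPM. Of 16 genes for sensor processing and ER stress signalling 15 reached 1 TPM, led by Tmbim6 at 388 ± 13.8 and the Xbp1 ligase gene Rtcb at 211 ± 5.13 TPM. On these 2 lists 0 genes were called by edgeR, against 0.193% of all genes. At an unadjusted edgeR p below 0.05 were 2 of 16 and 0 of 15 genes tested, against 5.34% of all genes.

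**Figure D4:**
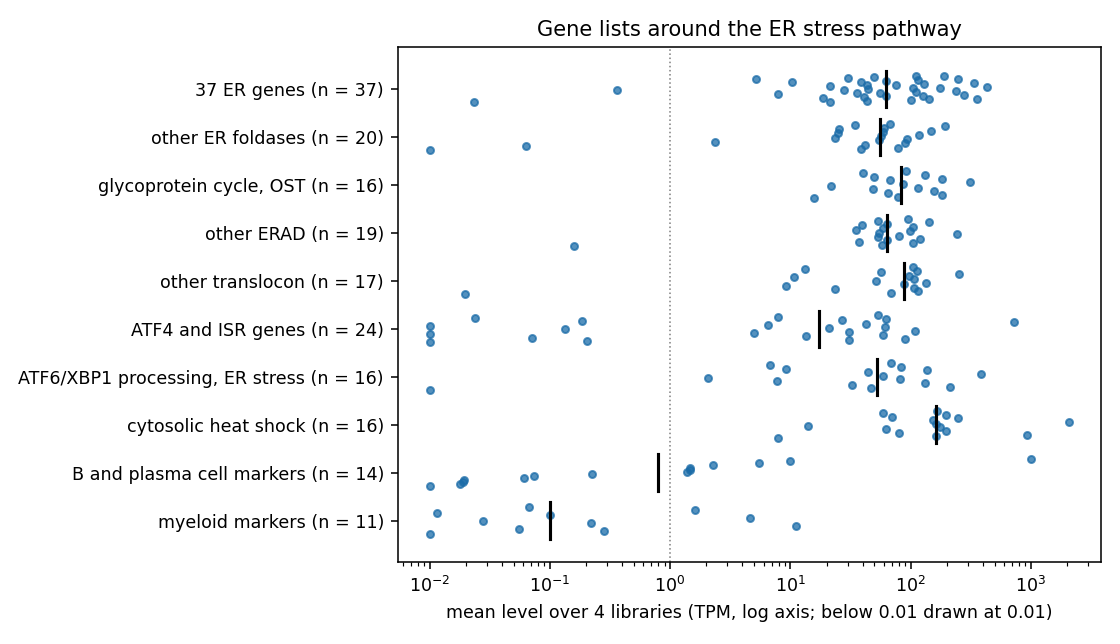
Mean level over 4 libraries in TPM on a log axis, 1 point per gene, for the 37 ER genes and 9 other lists; the black bar is the list median, the dotted line marks 1 TPM, and values below 0.01 are drawn at 0.01. The ER lists share a similar range, with medians of 56.0 to 87.4 TPM for the 4 lists of further ER genes and 62.6 TPM for the 37 genes, and marker lists of other cells lie mostly below 1 TPM.

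Markers of the labelled and of other cell types were set beside these levels. Pan-T genes were abundant, with Cd4 at 969 ± 34.2 and Lck at 1351 ± 38.9 TPM. Of the 8 Th17 markers 3 reached 1 TPM in every library, Il17f at 9.83 ± 3.10, Il17a at 4.22 ± 1.53 and Rora at 2.47 ± 0.372 TPM, while Il23r, Il22, Ccr6, Ccl20 and Il1r1 did not. The 5 naive T-cell markers had mean levels of 292 to 3034 TPM. The data thus show a T-cell population in which most of the Th17 markers examined were near 0. Plasma cells are known for high levels of ER chaperones and of Derl3. Of 14 B and plasma cell markers 4 passed 1 TPM throughout, and the list summed to 997 to 1043 TPM, nearly all of it Ighm at 997 ± 24.2 TPM. The others of these 4 were Irf4 at 9.98 ± 1.87, Prdm1 at 5.49 ± 0.466 and Ell2 at 2.28 ± 0.315 TPM. Igkc, Cd79b and Cd79a had means of 1.48, 1.46 and 1.37 TPM. The defining marker Tnfrsf17 had 0 counts, and Jchain, Sdc1, Mzb1, Ms4a1 and Pax5 were each at 0.600 TPM or less in every library. The 11 myeloid markers summed to 16.2 to 19.7 TPM. Of these Cd68 at 11.1 ± 2.81, Fcgr3 at 4.603 ± 1.04 and Itgam at 1.61 ± 0.224 TPM reached 1 TPM in every library, and Cd14 had 0 counts. In bulk RNA, fewer cells that express a gene and less RNA per cell cannot be told apart.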

How the data were processed

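RNA from 4 libraries in 1 group was analysed. Per the file headers, the authors made the deposited counts with featureCounts, version 1.4.6-p4, over GENCODE M13 exons, counting fragments in pairs with both ends mapped and the reverse-strand setting 2. The labels give the assembly as mm10. No version of the aligner was found in the labels or headers. No option for fragments that map to several places or genes appears in the headers, so near-identical copies and the 5.38% of Hsp90b1 exon bases shared with other annotated genes may be undercounted. Descriptive text files were not used.

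Gene IDs, stripped of their version, were named from GENCODE M21 (50376 of 50600 matched). Of 171 list symbols 168 matched directly and 3 through a RefSeq synonym. TPM was computed from counts and the tables' exon lengths. The fit used edgeR 4.0.16 in R 4.3.3 (intercept only, TMM, filterByExpr, robust quasi-likelihood), with a one-sided F test of each gene's quasi-dispersion against the trend and Benjamini-Hochberg adjustment over 12464 genes. The script was tested on simulated data. DESeq2 1.42.0 gave dispersion outliers and size factors. Pair ratios used a pseudocount of 0.1. Python 3.11.15 with scipy 1.17.1 did the rest. Promoter windows are RefSeq's, GRCm38.p6. Totals ran from 29041979 to 48808978 counts, and floors and intervals cover counting error only. All 37 members could be named, with the 3 highest genes of each list and up to 4 called ones. Members and lists were chosen with earlier results of these data known.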

Additional observations from a re-analysis of the deposited data

Results flagged for a closer look

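Of 58 sets of 4 values examined (37 genes, 13 pairs, 7 role groups and the sum over the 37 genes), 4 had 1 library far from the other 3, its gap to the nearest exceeding Dixon's critical share of the range. Chance gives about 1 in 20. Hsp90b1 was high in replicate 4 (gap 0.84 of the range), at 346 TPM against 246 to 262 TPM. The summed level of the 6 ER chaperone genes was high in the same library (gap 0.878 of the range), at 788 TPM against 665 to 680.4 TPM. It is no separate finding, since without Hsp90b1 the gap was 0.385 of the range. The genes of the heat shock list summed to 7377 TPM there, and their part in both values was not tested. Ssr1 was high in replicate 1 (gap 0.98 of the range), at 38.6 TPM against 35.2 to 35.3 TPM, and edgeR did not call it (adjusted p = 0.995). Chac1 had its only 2 counts in replicate 4 (gap 1.0 of the range, which 3 zeros beside 1 other value always give).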

How the results depend on the processing

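Depth limits Derl3 and Chac1, with 31 and 2 counts in all. Members called stayed at 0 under 9 of 10 alternatives and was 2 without a count filter. The adjusted edgeR p of Hsp90b1 ran from 0.000433 without a filter to 0.997 without replicate 4, and that of Ppp1r15a from 0.000749 to 0.987. Over all genes the 24 calls became 349 without a filter, 10 when only genes averaging at least 5 CPM entered, 5 under a non-robust fit, 6 among nuclear protein-coding genes and 108 as DESeq2 outliers, and 7 (without replicate 3) to 86 (without replicate 4) with a replicate left out. The members' median level was 71.3 TPM when scaled to nuclear protein-coding genes only, since fewer genes share the total. The log2 ratio of Hspa5 over Hsp90b1 turned from -0.14 to 0.22 with GENCODE coding length, chosen after seeing the data because the planned RefSeq protein lengths were not run. The other 77 pair values kept their direction. The chaperone sum without Hsp90b1 was likewise added after seeing the data.

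With TMM factors, members highest in replicate 4 numbered 16 in place of 8, highest in replicate 2 numbered 4 in place of 10, lowest in replicate 1 numbered 11 in place of 3, and lowest in replicate 4 numbered 6 in place of 10. With DESeq2 size factors these were 16, 4, 11 and 5. Leaving out a replicate gave 5 to 11 members lowest in replicate 1, 6 to 11 lowest in replicate 2 and 9 to 15 highest in replicate 4, since fewer libraries compete. At a threshold of 5 TPM, 2 B and plasma cell, 1 myeloid and 1 Th17 marker remained above it. The causes of the other changes were not tested. No pairing of samples between groups was possible because the labels give 1 group.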

Other observations

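P4ha1, a collagen prolyl hydroxylase subunit gene outside the 37 genes, named after its values were seen, had the smallest adjusted p of the further ER foldases. It was at 44.5, 54.6, 43.2 and 77.3 TPM in replicates 1 to 4, 1.63-fold higher in replicate 4 than the mean of the others, and edgeR did not call it (adjusted p = 0.102). P4hb encodes the isomerase that is also the beta subunit of the same hydroxylase, and its level differed by 1.02-fold between its highest and lowest library.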
